A study of Homo sapiens with 4 samples.

Results

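The cytosolic ribosomal protein genes are the genes for the protein part of the ribosomes that translate nuclear-encoded mRNA, and they were measured here in a Hodgkin lymphoma cell line with and without added PDLIM2. Members were all probes whose gene symbol in GEO's platform annotation was RPL or RPS followed by a number, or RPLP0, RPLP1, RPLP2 or RPSA. This gave 70 genes of the 20045 genes named by a single symbol, 43 of the large and 27 of the small ribosomal subunit, measured by 115 probes. The rule left out 10 RPS6K genes (19 probes), which encode kinases, 20 pseudogene symbols (31 probes) and 8 relatives whose symbol carries an added L (13 probes). RPSA2, and RPS19BP1, the gene of a protein that binds RPS19, were left out as well, and RPLP0 and RPSA were not analysed here. RPS4Y1 and RPS4Y2 are counted as members and given no values, which leaves 68 genes with values, 43 of the large and 25 of the small subunit.

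L591 is an established cell line from Hodgkin lymphoma. The PDLIM2 group received 40 µg of the expression plasmid pcDNA3 with an insert encoding transcript variant 2 of PDLIM2 (named for its PDZ and LIM domains), and the mock group received 40 µg of pcDNA3 without it. Both groups also received 10 µg of the GFP plasmid pEGFP-N3, and GFP-positive cells were sorted, so every array reports cells that had taken up plasmid. Each group had 2 Illumina bead arrays hybridised with biotin-labelled RNA, numbered 1 and 2 in the labels.

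The arrays had 1 log2 value for each probe, with a median of 6.006 or 6.007 on each array, and their number limits the precision of every value. Nothing in the labels says whether separate cultures stand behind the 2 arrays of a group. Each p-value thus reflects the spread between these arrays alone, pooled in part over all tested probes, and that spread may be technical. The 2 probes of PDLIM2 itself were dim, at percentiles 6.14 and 2.99 of all probes, and differed by 0.31 and -0.29 log2 units, PDLIM2 minus mock. Their place relative to the transfected insert was not examined, and they are no check of the labels. Of 10 markers of Hodgkin and Reed-Sternberg cells, 8 read above 8 log2 units by the mean over the 4 arrays, FSCN1 and CCL22 highest, whereas TNFRSF8 (CD30) and CCL17 were dim at 6.75 and 6.07 in the PDLIM2 arrays and 6.73 and 6.08 in the mock arrays. Of the B cell markers 3 of 7 passed 8 log2 units, with MS4A1, PAX5 and POU2AF1 dim. The same level was passed by 1 of 8 T and NK cell markers (CD2) and by 0 of 7 myeloid and 0 of 5 fibroblast markers, although COL1A1 came close, at 7.93 in the PDLIM2 arrays and 8.06 in the mock arrays.

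A eukaryotic ribosome is built from ribosomal RNA and one copy of nearly every ribosomal protein, with the acidic stalk proteins P1 and P2 present in more copies than the rest. The large subunit joins amino acids and the small subunit reads the mRNA. Most ribosomal protein mRNAs begin with a C followed by an uninterrupted stretch of pyrimidines, the 5' terminal oligopyrimidine (TOP) motif, through which mTORC1 controls their translation. Proliferating lymphoid cells make these mRNAs in large amounts, and many processed pseudogenes and close paralogs carry nearly the same sequence, so a probe named for one gene can also bind transcripts of its copies.

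The start sites show that shared feature. RefSeq promoters of the build GRCh38.p14, which span 250 bases before the start and 50 from it, were found for 58 of the 68 genes (69 promoters). The windows printed here cover 80 bases before the start and the 20 bases from the start on, read 5′ to 3′ on the strand of the gene, and they show RPL14 and RPL9, which had high PDLIM2 minus mock differences, RPL10, whose probes were dim, RPL35 and RPL28, which had the lowest differences, the stalk gene RPLP2, and RPL41, whose probe was the brightest of the array. Capitals mark the run of C and T from the start base where that base is a C followed by at least 4 bases that are each C or T. Where a gene had several listed starts, the start with the longest such run is shown.
RPL14, chr3:40457259-40457358, plus strand: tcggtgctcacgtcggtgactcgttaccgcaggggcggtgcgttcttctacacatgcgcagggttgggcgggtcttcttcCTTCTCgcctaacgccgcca
RPL9, chr4:39458903-39459002, minus strand: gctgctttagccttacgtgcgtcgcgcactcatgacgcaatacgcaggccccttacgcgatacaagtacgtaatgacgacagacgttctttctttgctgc
RPL10, chrX:154398297-154398396, plus strand, 1 of its 3 listed starts: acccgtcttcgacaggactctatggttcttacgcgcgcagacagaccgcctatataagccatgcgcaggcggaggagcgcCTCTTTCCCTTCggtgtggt
RPL35, chr9:124861938-124862037, minus strand: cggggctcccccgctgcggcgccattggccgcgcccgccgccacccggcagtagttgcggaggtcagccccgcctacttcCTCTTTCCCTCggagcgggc
RPL28, chr19:55385852-55385951, plus strand: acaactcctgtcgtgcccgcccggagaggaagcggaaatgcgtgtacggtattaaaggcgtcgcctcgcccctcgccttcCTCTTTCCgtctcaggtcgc
RPLP2, chr11:809887-809986, plus strand: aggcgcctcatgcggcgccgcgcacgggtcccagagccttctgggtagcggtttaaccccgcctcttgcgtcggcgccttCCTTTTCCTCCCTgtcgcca
RPL41, chr12:56116553-56116652, plus strand: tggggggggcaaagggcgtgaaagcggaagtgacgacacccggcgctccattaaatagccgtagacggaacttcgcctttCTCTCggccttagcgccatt

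The run is 6 bases long in RPL14, 12 in RPL10, 11 in RPL35, 8 in RPL28, 13 in RPLP2 and 5 in RPL41. The listed start of RPL9 is not in such a run, but a run begins within 10 bases of it. Of the 58 genes, 43 (74.1%) had a start in a TOP-like run, 27 of 36 large subunit genes (75%) and 16 of 22 small subunit genes (72.7%), against 5.16% of the 27195 genes in the table. By promoter the share was 62.3% of 69, against 4.08% of all 34961. A run beginning within 10 bases of the start was found for 91.4% of the member genes, against 38.5% of all genes. On either strand of the full promoter windows, CCGGAA, the core that ETS family factors bind, was present in 53.6% of the member promoters, against 17.3% of all promoters. The GC box GGGCGG was present in 55.1% against 45.0%, and the TATA box TATAAA in 5.80% against 11.5%. These are letter matches in the listed windows, and none of them was measured on the arrays.

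The ribosomal protein probes were among the brightest of the array in both groups. By the brightest tested probe of each gene, the median reading over the 68 genes was 14.09 and 14.15 log2 units in the PDLIM2 arrays and 14.18 and 14.17 in the mock arrays. The mean over the 4 arrays had a median of 14.16 over the 68 genes, against 8.44 over all 12417 named genes with a tested probe. The large subunit median was 14.15 and the small subunit median 14.26. Of the 68 genes, 39 read above 14, 52 above 13 and 45 above the 99th percentile of all probes, and 4 read below 10. Among the 100 brightest probes of the array, 20 were members, and 4 more carried pseudogene symbols. Members made up 42 of the 200 brightest (21%) and 72 of the 652 probes above 13 (11.0%). A probe's brightness depends on its own sequence as well as on the transcript, so these readings order probes, not amounts of mRNA.

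RPL41, which encodes a very short basic peptide of the large subunit, had the brightest probe of the array (ILMN_2331890), at 14.78 and 14.98 in the PDLIM2 arrays and 14.98 and 14.85 in the mock arrays. It was followed among the members by RPS25, RPS27, RPS12 and RPLP2, with means of 14.78, 14.72, 14.72 and 14.69. RPS25 encodes a small subunit protein needed for initiation at certain viral internal entry sites, and RPS27 encodes a zinc-binding protein. RPS25 read 14.79 and 14.81 in the PDLIM2 arrays and 14.75 and 14.76 in the mock arrays, and RPS27 read 14.90 and 14.55 in the PDLIM2 arrays and 14.70 and 14.74 in the mock arrays. RPS12 read 14.59 and 14.86 in the PDLIM2 arrays and 14.72 and 14.71 in the mock arrays. The 2 PDLIM2 arrays of RPS27 lie farther apart than the means of these 5 genes, so the order of these neighbours is not settled.

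At the dim end stood RPL10, RPL37, RPL28, RPL36A and RPL14, all of the large subunit, with means of 6.13, 7.59, 8.75, 9.52 and 10.16. RPL10, which encodes a protein that joins the large subunit at the last steps of its maturation, read 6.16 and 6.35 in the PDLIM2 arrays and 6.10 and 5.91 in the mock arrays. Its second probe read lower still, with a mean of 5.71, under the filter on dim probes of 5.99. RPL37, a zinc-binding protein gene, had a second probe at 6.06, and RPL36A a second probe at 5.75.

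Probes for 1 gene often gave very different readings. Of the 70 genes, 33 had several probes, and the gap between the brightest and the dimmest had a median of 1.83 log2 units over these genes. It was over 3 units in 12 of them and widest in RPL32, at 7.03 units. The 4 probes of RPL32 had means of 14.43, 8.68, 7.90 and 7.40, and the 2 probes of RPL41 14.90 and 8.15. The annotation used here does not say which part of a transcript each probe covers, so a dim probe of a bright gene cannot be assigned to an isoform, and the dim readings of RPL10 or RPL37 do not show that their mRNAs were scarce.

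**Figure D1:**
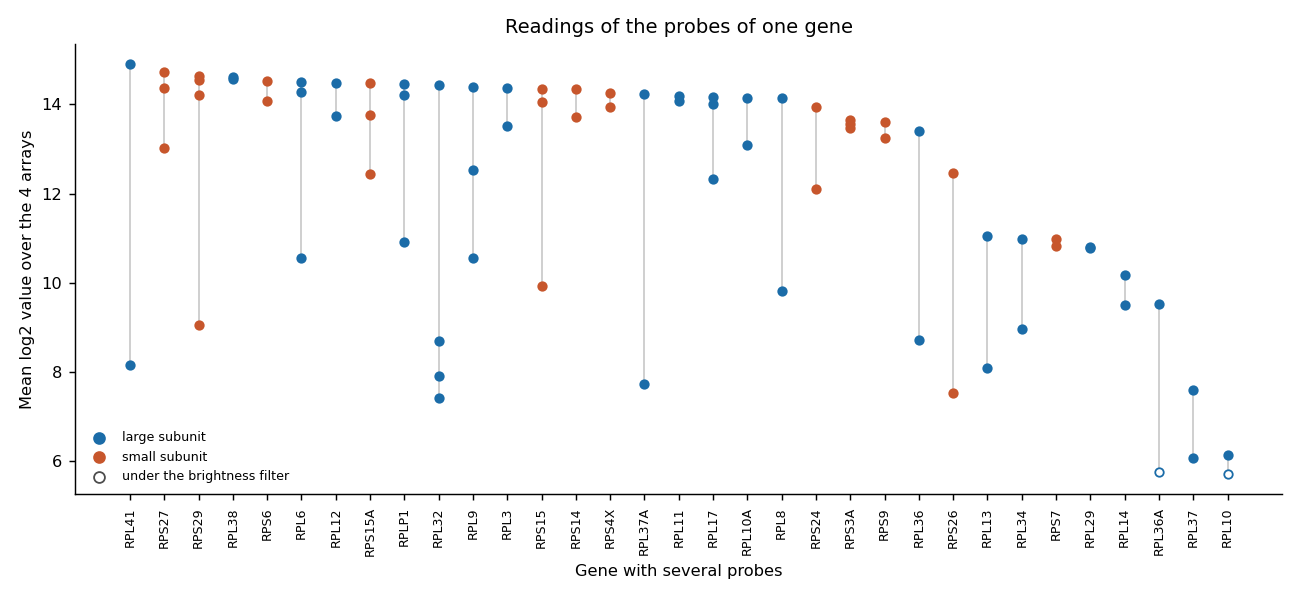
Mean log2 value over the 4 arrays (y axis) of every probe of the 33 member genes with several probes (x axis, ordered by the brightest probe). Points are probes in the colour of the subunit, open points lie under the filter on dim probes, and a line joins the probes of a gene; the widest gap is that of RPL32, 7.03 log2 units, and both probes of RPL10 are dim.

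Some probes named for ribosomal protein pseudogenes were as bright as those of the members. Of the 31 such probes, 23 passed the filter, 8 read above 13 and 6 above 14. The 6 were RPL13AP5 with 2 probes (14.70 and 14.54), RPSAP9 (14.58), RPL13AP20 (14.56), RPL19P12 (14.04) and RPS26P11 (14.01). RPSAP9 read 14.76 and 14.60 in the PDLIM2 arrays and 14.61 and 14.38 in the mock arrays, and whether such a probe reports a pseudogene or its parent gene was not tested. Over the 31 probes the PDLIM2 minus mock difference ranged from -0.24 (RPL13AP3) to 0.32 (a dim probe of RPS26P11).

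The comparison of the study sets L591 cells given PDLIM2 beside cells given the empty plasmid. For the ribosomal protein genes no difference passed the test, and the differences lay evenly on both sides of 0. The median difference over the 68 genes, PDLIM2 minus mock, was 0.0013 log2 units, with 34 genes above and 34 below 0, a middle range (quartiles) of -0.069 to 0.054 and extremes of -0.38 and 0.37. Over all 12417 named genes the median was 0.025, and 55.5% were positive. The deposited arrays shared nearly one distribution of values, so a shift common to most bright probes may not show in these differences. Since both groups are bulk samples, fewer cells making a transcript and less of it per cell cannot be told apart.

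By limma, 0 of the 111 tested member probes passed an adjusted p of 0.05 (smallest adjusted p = 0.9998), as did 0 of all 23615 tested probes (0%). At an unadjusted limma p under 0.05 there were 0 member probes in either direction, against 254 probes higher (1.08%) and 411 lower (1.74%) over all tested probes. Differences of at least 0.32 log2 units were found upward in 3 member probes and downward in 3, sizes that 4.67% of all tested probes passed upward and 6.65% downward. No member probe differed by 1.5-fold, a size that 0.449% of all tested probes passed upward and 1.64% downward. Leaving out 1 array moved the count over all probes, to 810 calls when the PDLIM2 array 1 was left out and 45 when it was the PDLIM2 array 2, and in each of the 4 such fits 0 member probes were called.

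The interval of a difference says how large a change in the readings these arrays could have missed. Of the 68 genes, 39 read above 14, and the highest values of the arrays were 14.98 and 15.07. Whether readings so near the top of the scale follow the amount of mRNA was not tested. The intervals therefore cover changes in reading only. By the brightest tested probe of each gene, the 95% confidence interval from limma lay within 1.5-fold in both directions for 54 of the 68 genes. These were 31 of the large and 23 of the small subunit. By the same probes it lay within 2-fold for all 68. The lowest lower bound was -0.82 (RPL35) and the highest upper bound 0.90 (RPL14). For the other 14 genes a 1.5-fold change lies inside the interval and is not excluded. Over all 111 tested member probes, the interval lay within 1.5-fold for 81 and within 2-fold for 109. It reached beyond 2-fold for dimmer probes of RPL13 (-1.10 to 0.95) and RPL6 (-1.02 to 0.77).

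The spread of the members was smaller than that of the median gene. The median absolute difference was 0.063 log2 units over the 68 genes, against 0.126 over all named genes, and the median SD within groups was 0.111 against 0.171. Among bright probes the gap was smaller: the 72 member probes above 13 had a median absolute difference of 0.069, against 0.088 for the 572 other probes above 13. The median SD was 0.099 for these member probes and 0.114 for the others.

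**Figure D2:**
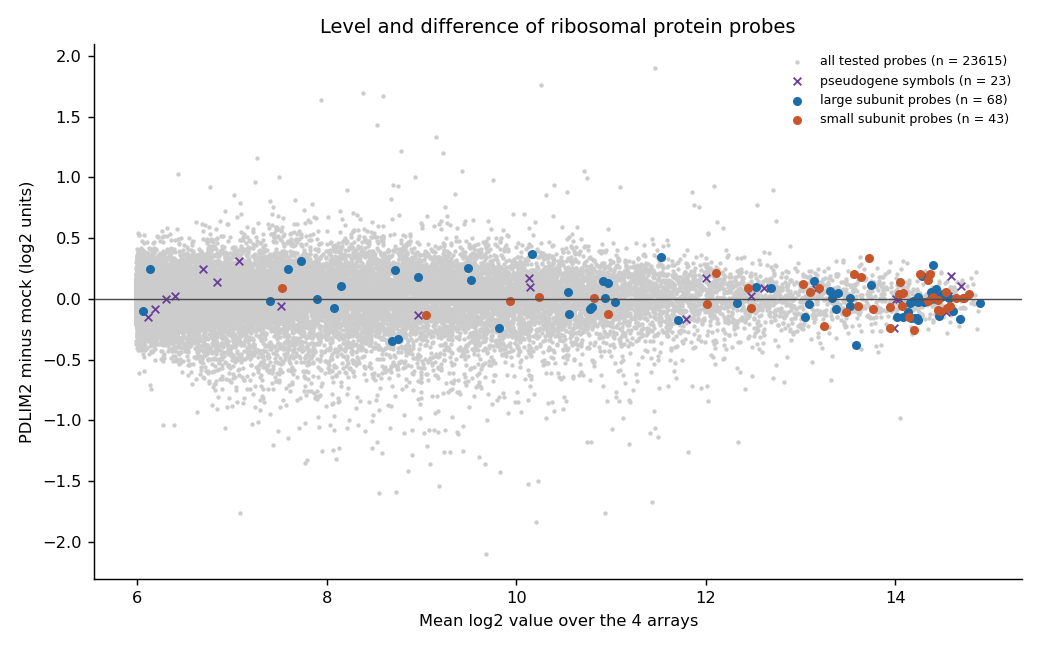
PDLIM2 minus mock difference (y axis, log2 units) against the mean log2 value over the 4 arrays (x axis) for all 23615 tested probes (grey), the 68 large subunit and 43 small subunit probes and the 23 tested probes with pseudogene symbols. The member probes gather at the bright end and stay between -0.38 and 0.37, inside the grey cloud.

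Both PDLIM2 arrays lay above both mock arrays in 11 of the 68 genes (16.2%) and below them in 11 (16.2%), against 17.7% and 12.3% of all named genes. By probe the counts were 21 of 111 higher (18.9%) and 16 lower (14.4%), against 15.8% and 12.8% of all tested probes. These pooled shares are near the background in both directions. Of the 72 member probes above 13, 11 were higher (15.3%) and 14 lower (19.4%), against 14.2% and 14.5% of the other probes above 13. Of the 39 at or below 13, 10 were higher (25.6%) and 2 lower (5.13%). The difference had the same sign within the arrays numbered 1 and within those numbered 2 in 29 of the 68 genes (42.6%), against 55.4% of all named genes.

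The large and the small subunit genes both had medians close to 0. The median difference was -0.00028 over the 43 large subunit genes (21 positive, 22 negative) and 0.0080 over the 25 small subunit genes (13 positive, 12 negative), and the large minus the small subunit median was -0.0082. Groups did not overlap in 7 large subunit genes in each direction (16.3%) and in 4 small subunit genes in each direction (16%), near the 17.7% higher and 12.3% lower of all named genes. The large subunit genes spread more widely, from -0.38 to 0.37 against -0.15 to 0.20, and their median SD within groups was 0.125, against 0.084 for the small subunit. Without the PDLIM2 array 1 the large subunit median was 0.050 and the small subunit median -0.031, and with PDLIM2 array 2 left out they were -0.056 and -0.011, so the sign of both medians depends on which arrays are used.

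**Figure D3:**
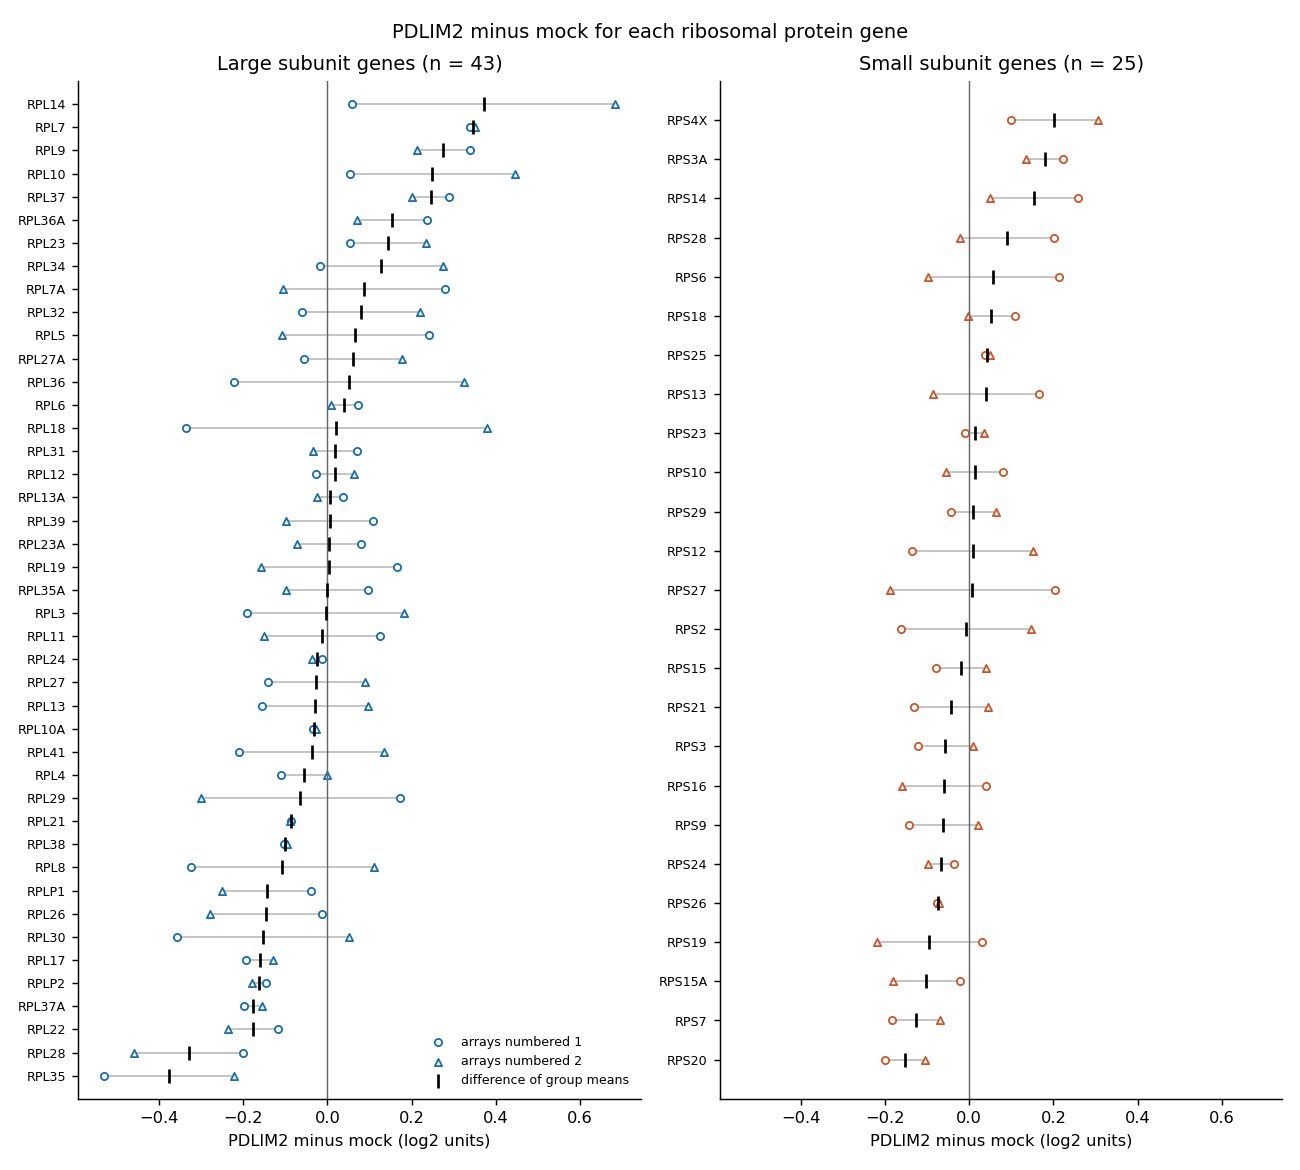
PDLIM2 minus mock difference (x axis, log2 units) of the brightest tested probe of each of the 43 large and 25 small subunit genes (y axis). Circles and triangles are the differences within the arrays numbered 1 and 2 and black ticks the difference of the group means; RPL14 and RPL35 are the extremes, and the 2 within-number differences fall on opposite sides of 0 in many genes.

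The most positive differences were those of RPL14, RPL7, RPL9, RPL10 and RPL37, of the large subunit, and RPS4X of the small. RPL14 (ILMN_1726460) read 10.06 and 10.64 in the PDLIM2 arrays and 10.00 and 9.96 in the mock arrays. The PDLIM2 array 2 alone stood apart, and without it the difference was 0.078 in place of 0.37 (SE 0.23). A second RPL14 probe read 9.63 and 9.60 in the PDLIM2 arrays and 9.28 and 9.44 in the mock arrays, a difference of 0.25. RPL7 (ILMN_1815292), which encodes a protein of the large subunit that binds RNA, read 11.70 and 11.70 in the PDLIM2 arrays and 11.37 and 11.35 in the mock arrays. Both PDLIM2 arrays lay above both mock arrays and the arrays of a group were nearly equal, with a difference of 0.35 (SE 0.16). Its limma p before adjustment, 0.073, was the smallest among the members, and its adjusted p was 0.9998. RPL7 was measured by this probe only, and its difference stayed between 0.34 and 0.35 with any array left out.

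RPL9 read 14.51 and 14.56 in the PDLIM2 arrays and 14.17 and 14.35 in the mock arrays, a difference of 0.28. Its 2 dimmer probes differed by only 0.099 and 0.054, and the mean over the 3 probes by 0.14. The gene start of RPL9, printed among the windows, was the one of the 7 not in a TOP-like run. A run began within 10 bases of that start. RPL37 read 7.72 and 7.71 in the PDLIM2 arrays and 7.43 and 7.51 in the mock arrays, a difference of 0.25, but its second, dimmer probe differed by -0.098. RPL10 differed by 0.25 at a reading close to the filter, by 0.15 when 50 was added to every intensity, and by 0.15 to 0.35 with 1 array left out. RPS4X, the X-linked gene of a small subunit protein, read 14.31 and 14.42 in the PDLIM2 arrays and 14.21 and 14.12 in the mock arrays, a difference of 0.20. Its other probe read 13.69 and 13.96 in the PDLIM2 arrays and 13.96 and 14.17 in the mock arrays, a difference of -0.24, so the 2 probes of this gene pointed in opposite directions.

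The most negative differences were those of RPL35, RPL28, RPL22, RPL37A, RPLP2 and RPL17, all of the large subunit. RPL35 (ILMN_2142815), which encodes a protein at the exit of the peptide tunnel, read 13.23 and 13.57 in the PDLIM2 arrays and 13.77 and 13.79 in the mock arrays. Both PDLIM2 arrays lay below both mock arrays, with a difference of -0.38 (SE 0.19) that ranged from -0.54 to -0.21 with 1 array left out. RPL28 encodes a protein without a counterpart in budding yeast. It read 8.64 and 8.53 in the PDLIM2 arrays and 8.84 and 8.99 in the mock arrays, a difference of -0.33 (SE 0.17). RPL22 encodes a protein known to bind a small RNA of Epstein-Barr virus. It read 11.54 and 11.71 in the PDLIM2 arrays and 11.66 and 11.94 in the mock arrays, and its groups overlapped. Its difference of -0.18 ranged from -0.32 to -0.033 with 1 array left out. For RPL37A, a zinc-binding protein gene, the groups did not overlap, with 14.12 and 14.18 in the PDLIM2 arrays and 14.32 and 14.33 in the mock arrays, a difference of -0.18. RPL17, another tunnel exit protein gene, read 14.03 and 14.15 in the PDLIM2 arrays and 14.22 and 14.28 in the mock arrays, a difference of -0.16.

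The genes of the stalk proteins P1 and P2, which recruit the elongation factors to the ribosome, both read slightly lower by their bright probes. RPLP2 read 14.65 and 14.57 in the PDLIM2 arrays and 14.79 and 14.75 in the mock arrays, a difference of -0.16 (SE 0.17). RPLP1 read 14.42 and 14.37 in the PDLIM2 arrays and 14.46 and 14.62 in the mock arrays, a difference of -0.14, and a second bright probe differed by -0.15. A dimmer RPLP1 probe went the other way, at 11.10 and 10.86 in the PDLIM2 arrays and 10.84 and 10.83 in the mock arrays, a difference of 0.14. None of these passed the test.

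Probes of the same gene often disagreed in sign. Among the 31 genes with at least 2 tested probes, all probes shared a sign in 15 and did not in 16. A gene with more than 2 tested probes counted among the 16 when any 1 of them differed in sign. These counts therefore do not give the agreement between pairs of probes. Tested probes of a gene disagreed by over 0.25 log2 units in 9 genes: RPL32, RPL6, RPL37, RPL37A, RPLP1, RPS24, RPS29, RPS3A and RPS4X. RPS3A, of the small subunit, had 2 probes with differences of 0.18 and 0.20 and 1 with -0.10, all 3 reading between 13.48 and 13.64. RPL37A differed by -0.18 on its bright probe and by 0.31 on its dim one, which read 7.70 and 8.07 in the PDLIM2 arrays and 7.48 and 7.66 in the mock arrays. RPS14, the small subunit gene lost in the 5q- syndrome, had 2 probes of the same sign. The brighter differed by 0.15, and the other read 13.91 and 13.88 in the PDLIM2 arrays and 13.51 and 13.61 in the mock arrays, a difference of 0.34 (SE 0.17).

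Some members differed more between the array numbers than between the groups. The dim RPL13 probe read 8.59 and 7.50 in the PDLIM2 arrays 1 and 2 and 8.64 and 7.59 in the mock arrays 1 and 2, a difference between the numbers, 2 minus 1, of -1.07. The bright RPL13 probe moved the other way, at 10.71 and 11.34 in the PDLIM2 arrays and 10.86 and 11.24 in the mock arrays, or 0.51. The PDLIM2 minus mock differences of the 2 probes were only -0.073 and -0.029. RPL7A and RPS23 were higher in the arrays numbered 2 of both groups, RPS23 at 10.00 and 10.50 in the PDLIM2 arrays and 10.01 and 10.47 in the mock arrays, each by 0.48, and dim probes of RPL6 and RPL8 were lower there by 0.91 and 0.62. RPL13, RPL7A, RPS23 and RPL29 had the largest SDs within groups among the members (0.37, 0.36, 0.34 and 0.33). Within 1 treatment, the 2 probes of RPL13 thus moved apart between arrays. Over the 68 genes the absolute difference between the numbers had a median of 0.106, against 0.063 between the groups. Over all named genes these medians were 0.171 and 0.126, and over the other tested probes above 13 they were 0.105 and 0.088. What the number stands for is not stated in the labels.

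**Figure D4:**
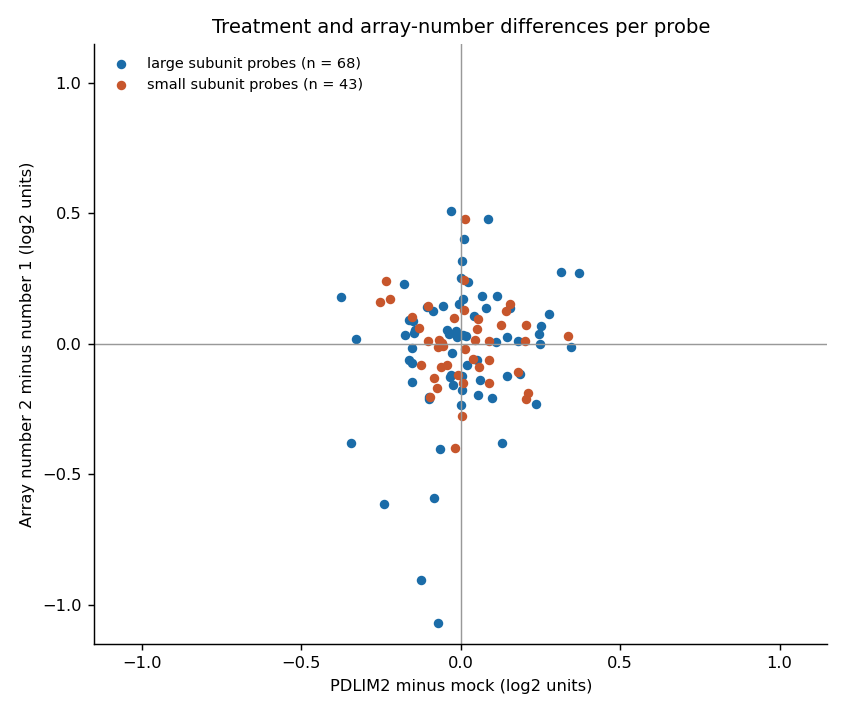
Difference between the arrays numbered 2 and 1 (y axis, log2 units) against PDLIM2 minus mock (x axis, log2 units) for the 68 large and 43 small subunit probes that were tested. Points reach from -1.07 to 0.51 on the y axis and from -0.38 to 0.37 on the x axis.

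Genes with a listed start in a TOP-like run and those without had similar differences. The median was 0.0054 over the 43 genes with a run at the start and -0.0042 over the 15 without. With runs beginning within 10 bases of the start counted, 53 of the 58 genes had one. The 15 are therefore not a set of genes without the motif. Among 16 tested genes of other TOP mRNAs, which encode elongation and initiation factors and a few further abundant proteins, 4 were positive (25%, against 55.5% of all named genes) and the median was -0.067. The groups did not overlap in 0 genes upward and 4 downward (25%), against 17.7% and 12.3% of all named genes, and 0 passed the adjusted threshold (limma). The 2 with the smallest p were HNRNPA1, an RNA-binding protein gene, at -0.61 (SE 0.31), and EIF3E, a subunit of initiation factor 3, at -0.23 (SE 0.16). EIF3E read 13.38 and 13.36 in the PDLIM2 arrays and 13.58 and 13.61 in the mock arrays. FAU, whose product includes a small subunit protein outside the symbol rule, differed by -0.056.

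The L-suffixed relatives, paralogs that can replace or accompany the standard proteins, had positive differences in 6 of 7 tested genes (85.7%, against 55.5% of all named genes), with a median of 0.18. The groups did not overlap in 4 upward (57.1%) and 0 downward, against 17.7% and 12.3% of all named genes, and 0 passed the adjusted threshold (limma). RPL10L, a copy of RPL10 known from testis, read 6.89 and 7.04 in the PDLIM2 arrays and 6.35 and 6.47 in the mock arrays, a difference of 0.56 (SE 0.17). Its unadjusted limma p was 0.014 and its adjusted p 0.9998, so it did not pass the test. RPL22L1, the paralog of RPL22, read 7.83 and 8.21 in the PDLIM2 arrays and 7.78 and 7.64 in the mock arrays, a difference of 0.30. Within the arrays numbered 1 the difference of RPL22L1 was 0.043 and within those numbered 2 it was 0.56.

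Genes for building ribosomes had a higher median difference than the ribosomal protein genes. Of 34 ribosome assembly genes 29 were positive (85.3%, against 55.5% of all named genes), with a median of 0.16 and 0 passing the adjusted threshold (limma). The groups did not overlap in 15 upward (44.1%) and 2 downward (5.88%), against 17.7% and 12.3% of all named genes. RRS1, needed for 5S RNA incorporation, read 10.29 and 9.89 in the PDLIM2 arrays and 9.64 and 9.70 in the mock arrays, a difference of 0.42 (SE 0.20). NMD3, the export adaptor of the large subunit, read 10.69 and 10.93 in the PDLIM2 arrays and 10.26 and 10.60 in the mock arrays, a difference of 0.38. Genes for the ribosomal proteins of mitochondria, a separate ribosome, had a median of 0.090, with 55 of 76 positive (72.4%, against 55.5% of all named genes). No overlap was seen in 21 upward (27.6%) and 5 downward (6.58%), against 17.7% and 12.3% of all named genes. MRPS2 and MRPS23 had the smallest p among these, with differences of 0.34 and 0.30. The smallest unadjusted limma p of this list was 0.11, and 0 of its genes passed the adjusted threshold. Both lists also leaned by array number. Of the ribosome assembly genes, 24 of 34 read lower in the arrays numbered 2 than in those numbered 1 (median -0.12). So did 60 of the 76 mitochondrial genes (median -0.11). The PDLIM2 minus mock median of ribosome assembly was 0.20 within number 1 and 0.074 within number 2. For the mitochondrial genes these medians were 0.075 and 0.11. These lists were not tested as sets, and against the ribosomal protein median of 0.0013 they are given as descriptions.

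The polymerases that make ribosomal RNA, transfer RNA and 5S RNA, and the regulators of TOP mRNA translation, had lower medians than ribosome assembly genes. Of 12 RNA polymerase I genes 8 were positive (median 0.079), with UBTF, the factor that opens ribosomal DNA, at 0.45 (SE 0.19) and TAF1B at -0.41 (SE 0.20). Of 19 RNA polymerase III genes 12 were positive (median 0.041), with GTF3C1 at 0.61 (SE 0.25) and POLR3G at 0.28. Of 13 mTORC1 and TOP regulators 7 were positive (median 0.0049), with TSC2 at 0.40 and MTOR at 0.29. Proteasome subunits, another abundant complex, had a median of 0.036 with 18 of 33 positive, PSMB1 at 0.31 and PSMD3 at 0.28. In the order of these 4 lists, 66.7%, 63.2%, 53.8% and 54.5% of the genes were positive, against 55.5% of all named genes. The groups did not overlap upward in 33.3%, 15.8%, 23.1% and 9.09%, against 17.7% of all named genes. Downward the shares were 16.7%, 0%, 0% and 3.03%, against 12.3%. In limma, 0 of the genes in these 4 lists reached an adjusted p of 0.05.

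**Figure D5:**
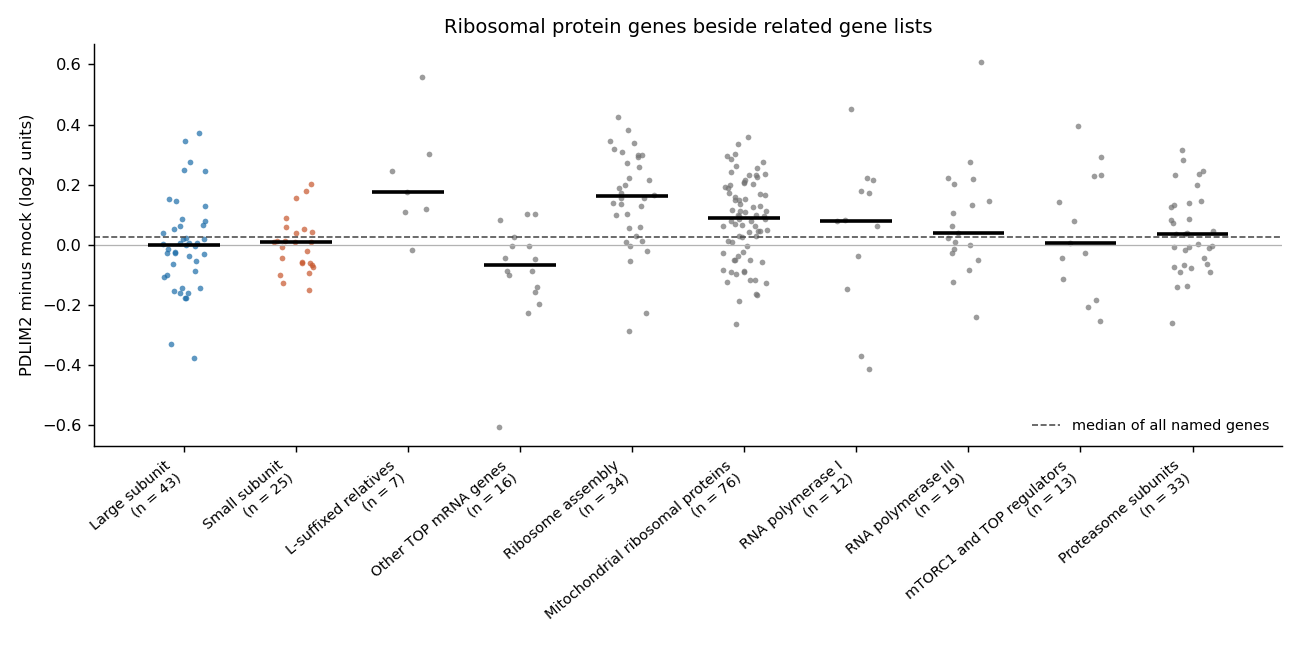
PDLIM2 minus mock difference (y axis, log2 units) of the brightest tested probe of each gene in the large and small subunit and 8 related lists (x axis, with the number of genes). Points are genes, thick bars list medians and the dashed line the median of all named genes, 0.025; the ribosomal protein medians lie at 0 and 0.0080, below that line, and ribosome assembly lies at 0.16.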

How the data were processed

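The table that the authors deposited holds log2 values, 1 for each probe on each array. How these were scanned, background-corrected and normalized is not given in the sources used here. Detection p-values were not used, so the distance of dim probes from background is not known. The 75th percentiles of the 4 arrays were equal at 7.553, and the quartiles differed between arrays by at most 0.00081 log2 units. The arrays thus shared nearly one distribution, and the values were used as deposited. Of 47231 probes, 47230 had all 4 values, 30113 had 1 symbol in GEO's platform annotation, 8 had several and 17110 were not listed. A check against RefSeq (GRCh38.p14) changed 0 symbols.

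A filter kept the 23615 probes whose mean exceeded 5.99, the median of all probes, and 16913 of these had a symbol. The groups were compared in R 4.3.3 with limma 3.58.1 (lmFit, then eBayes with neither trend nor robust prior), with Benjamini-Hochberg adjustment over all tested probes at 0.05. Residual degrees of freedom were 2, and the prior added 5.10. Each gene was described by its brightest tested probe. Tables and promoter matches were made in Python 3.11.15. The scripts were tested on simulated data with independent noise in each array. Noise shared by same-numbered arrays was not simulated.

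The members and lists were chosen with earlier results of these data known. Named genes were the members with the 5 highest and 5 lowest readings, the 6 most positive and 6 most negative differences, the 4 largest SDs, probes over 0.25 log2 units apart, the stalk genes, and the 2 genes of each list with the smallest p. RPS14, RPL8 and the pseudogenes were added after their values were seen. Alternatives were quantile normalization, the test without a filter or with one at the 75th percentile, an offset of 50, limma-trend, a robust prior, a replicate block, each array left out, the mean over a gene's probes and differences within an array number.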

Additional observations from a re-analysis of the deposited data

How the results depend on the processing

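In each alternative that refitted the probes, 0 member probes passed the adjusted threshold. Member probes at an unadjusted limma p under 0.05 numbered 0 as reported, 1 with no filter (RPL7), 3 with an offset of 50, 2 with limma-trend and 3 with the replicate block (RPL35, RPL7 and RPS14), and 0 to 4 with 1 array left out, the 4 being RPL14 and dim probes of RPL8, RPL13 and RPL6 without the PDLIM2 array 1. Over all probes, the replicate block called 1 and leaving out an array 0 to 810. The labels pair the arrays by number and say no more about it. Deviations of same-numbered arrays from the group means correlated at 0.476 across probes, as a hint of pairing from the data. The main test did not use the number. With 1 array left out, its partner is assumed to vary like the other group. The median difference then ranged from -0.056 to 0.050 for the large subunit, from -0.031 to 0.0023 for the small and from -0.045 to 0.081 for large minus small. The higher filter and the mean over a gene's probes moved these medians by less than the spread between arrays. Quantile normalization did so too, but the arrays already shared nearly one distribution, so it could change little. Without the filter each gene kept the same brightest probe, so these medians could not move. Neither quantile normalization nor removal of the filter is therefore a check of these medians. Of the 27 named members, 10 changed sign with an array left out, none of these among the 12 with the most positive or negative differences. With the mean over a gene's probes 6 changed sign, RPL37A (to 0.069) and RPS4X (to -0.016) among them, and RPL37 moved to 0.074. Signal over background was not used, which limits the reading of RPL10 and RPL37.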
